A study of Mus musculus with 8 samples.

Results

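Transcripts of glycolysis, of lactate and pyruvate transport and of the entry of pyruvate into mitochondria were measured in single mouse ovarian follicles. The genes were taken from a list of names, with no threshold on their values: 38 were listed, 35 of them stood in both count tables, which share 21997 genes, and 33 passed the filter on low counts. Slc2a4, Hk3 and Pklr were not analysed here, and Pgam2 and Eno2, which did not pass the filter, are given by their counts. RNA was sequenced from 8 C57BL/6 follicles, 1 follicle per library, with 2 libraries in each of 4 groups. Preantral follicles (PF) have several layers of granulosa cells around the oocyte and no cavity, and small antral follicles (SAF) have begun to form a fluid-filled cavity. PF-WT and SAF-WT were follicles of wild type mice, and PF-TF and SAF-TF were follicles that, per the labels, arose from transplanted female germline stem cells (FGSCs), cells of the ovary reported to give rise to oocytes. The age of the mice, the host of the transplant and the origin of the somatic cells of a TF follicle were left unstated by the submitters' labels. Follicles were freed with a needle, so tissue attached to a follicle can be part of a library. The labels name no mouse for any follicle, and every p-value below measures only the spread between these follicles.

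Glycolysis turns glucose into pyruvate through a series of cytosolic enzymes, and lactate dehydrogenase interconverts pyruvate and lactate. Monocarboxylate transporters carry both acids across the plasma membrane, the mitochondrial pyruvate carrier brings pyruvate to the pyruvate dehydrogenase complex, and pyruvate dehydrogenase kinases switch that complex off. In the ovary, growing oocytes are known to use pyruvate and to take up glucose poorly, while granulosa cells break down glucose and supply the oocyte. Mouse oocytes are also known for abundant lactate dehydrogenase made of B subunits.

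Total counts ran from 7656108 to 9805287 per library, and 18796 to 20694 genes had at least 1 count. Levels are given as CPM, the counts of a gene scaled to a common library size, and levels of different genes are compared only per kilobase of transcript. Transcripts of the listed genes made up 0.205% (SAF-WT replicate 1) to 0.812% (PF-TF replicate 1) of all counts. Markers of several cell types differed between the groups. The summed level of 12 oocyte markers, all detected, was 9987 and 8496 CPM in PF-WT, 22700 and 18240 CPM in PF-TF, 734.5 and 3641 CPM in SAF-WT, and 574.5 and 287.5 CPM in SAF-TF. The sum of 7 luteal cell markers, all detected, was 739.7 to 2907 CPM in the PF libraries, 4051 and 3338 CPM in SAF-WT, and 36870 and 26590 CPM in SAF-TF. Outside SAF-TF most of that sum came from Hsd3b1, at 616.8 to 2851 CPM in PF and 3775 and 3080 CPM in SAF-WT. Akr1c18 stood at 6.195 to 7.091 CPM in those libraries and at 10530 and 11350 CPM in SAF-TF. The sum of 9 granulosa markers was 2893 to 4156 CPM in the PF libraries, 1171 and 1230 CPM in SAF-WT, and 2064 and 3143 CPM in SAF-TF. The sum of 8 stroma and fibroblast markers was 44.74 to 491.5 CPM in the PF libraries, 8129 and 5784 CPM in SAF-WT, and 2149 and 1480 CPM in SAF-TF, and 8 of 8 rose with stage in each source. Of 6 smooth muscle and pericyte markers, 4 rose with stage in wild type and 6 in TF. Of all genes tested, 12.7% rose with stage in wild type and 18.2% in TF (edgeR, adjusted p below 0.05). Of the listed genes with a mean of at least 10 counts in a group, 25 of 31 were higher in SAF-TF replicate 1 than in replicate 2. In PF-TF 23 of 31 were higher in replicate 1, in PF-WT 23 of 31 in replicate 2, and in SAF-WT 17 of 30 in replicate 1. These shares were not worked out for all genes.

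Under the main scaling, most listed genes that passed between the preantral and small antral stage were lower in SAF in wild type. In TF most were higher in SAF. Of all genes that passed, more were lower than higher in SAF in both sources. In wild type, 12 of 33 (36.36%) passed (edgeR, adjusted p below 0.05 over all genes), beside 35.1% of all 17925 genes tested, 12.7% higher and 22.5% lower. Higher in SAF-WT were 3, the hexokinase gene Hk2, the pyruvate carrier gene Mpc2 and the pyruvate dehydrogenase gene Pdha1. Lower were 9, the glucose transporter gene Slc2a1, the enzyme genes Gpi1, Pfkl, Aldoa, Eno1 and Pkm, and the lactate dehydrogenase genes Ldha, Ldhb and Ldhc. In TF follicles 11 of 33 (33.33%) passed, beside 43.2% of all genes, 18.2% higher and 25% lower. Higher in SAF-TF were 8 (Hk2, Pgk1, Pgam1, Ldha, Mpc1, Mpc2, Pdha1 and Pdk1), and lower were 3 (Slc2a1, Ldhb and Ldhc). Both shares lay near or under the share of all genes. The median log2 fold change of the 33 genes was -0.38 in wild type, where that of all genes was -0.20, and 0.63 in TF, where that of all genes was -0.08. Called in both stage comparisons in the same direction were 6 genes, Hk2, Mpc2 and Pdha1 higher and Slc2a1, Ldhb and Ldhc lower, and 1 gene, Ldha, was called in opposite directions. The split of calls depended on scaling, for all genes as for the listed ones. With the authors' scale factors the median of all genes moved to 0.14 in wild type and 0.27 in TF. There 3 listed genes were higher and 5 lower in wild type, and 15 higher and 3 lower in TF. Of all genes, 3434 were higher and 2914 lower in wild type, and 4356 higher and 3562 lower in TF. With upper quartile factors the splits were 4 to 5 and 13 to 3, beside 3264 to 3275 and 4429 to 3613 for all genes. In the authors' deposited results, from their own test, 7 of the listed genes were higher and 4 lower in wild type. In wild type, fewer listed genes and fewer of all genes passed without SAF-WT replicate 1, SAF-WT replicate 2 or PF-WT replicate 2. The median of the listed genes was then -0.30, -0.27 and -0.24, beside -0.20, -0.24 and -0.04 for all genes. In TF, fewer of both passed without SAF-TF replicate 1, where the medians were 0.35 and -0.13.

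Between the sources, the listed genes did not pass at the preantral stage and 8 were higher in TF at the small antral stage. At the preantral stage 0 of 33 passed with edgeR, beside 0.218% of all genes, 0.0669% higher and 0.151% lower. Of the 33, 10 had an unadjusted p below 0.05, a share that was not worked out for all genes. DESeq2 called 4 (Ldha, Ldhb, Ldhc and Pdk1), beside 1281 of all 17925 genes, 316 higher and 965 lower. At the small antral stage 8 were higher in SAF-TF than in SAF-WT and 0 lower, beside 9.96% of all genes called in either direction, 4.61% higher and 5.34% lower. These were the sugar transporter gene Slc2a8 and the enzyme genes Gpi1, Pfkl, Pfkm, Aldoa, Tpi1, Eno1 and Pkm, and the median over the 33 genes was 0.97 where that of all genes was 0. The count was 0 without SAF-WT replicate 1, without SAF-WT replicate 2 or without SAF-TF replicate 1, settings in which 191, 200 and 116 of all genes passed. In a fit of the 4 SAF libraries alone the count was 16, where 3884 of all 17768 genes passed, 2140 higher and 1744 lower. Those 16 included Slc16a1 (-0.91) and Slc16a7 (-2.16), which were lower in SAF-TF. The difference of the stage effects between sources passed for 1 gene, Ldha, beside 0.904% of all genes, 0.658% higher and 0.245% lower. Of the 33, 28 had a positive value, a share that was not worked out for all genes. Their median was 0.94 where that of all genes was 0.06. All of these comparisons share libraries: the 2 SAF-WT libraries that enter the wild type stage effect also enter the source effect in SAF, and likewise for the other groups.

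**Figure D1:**
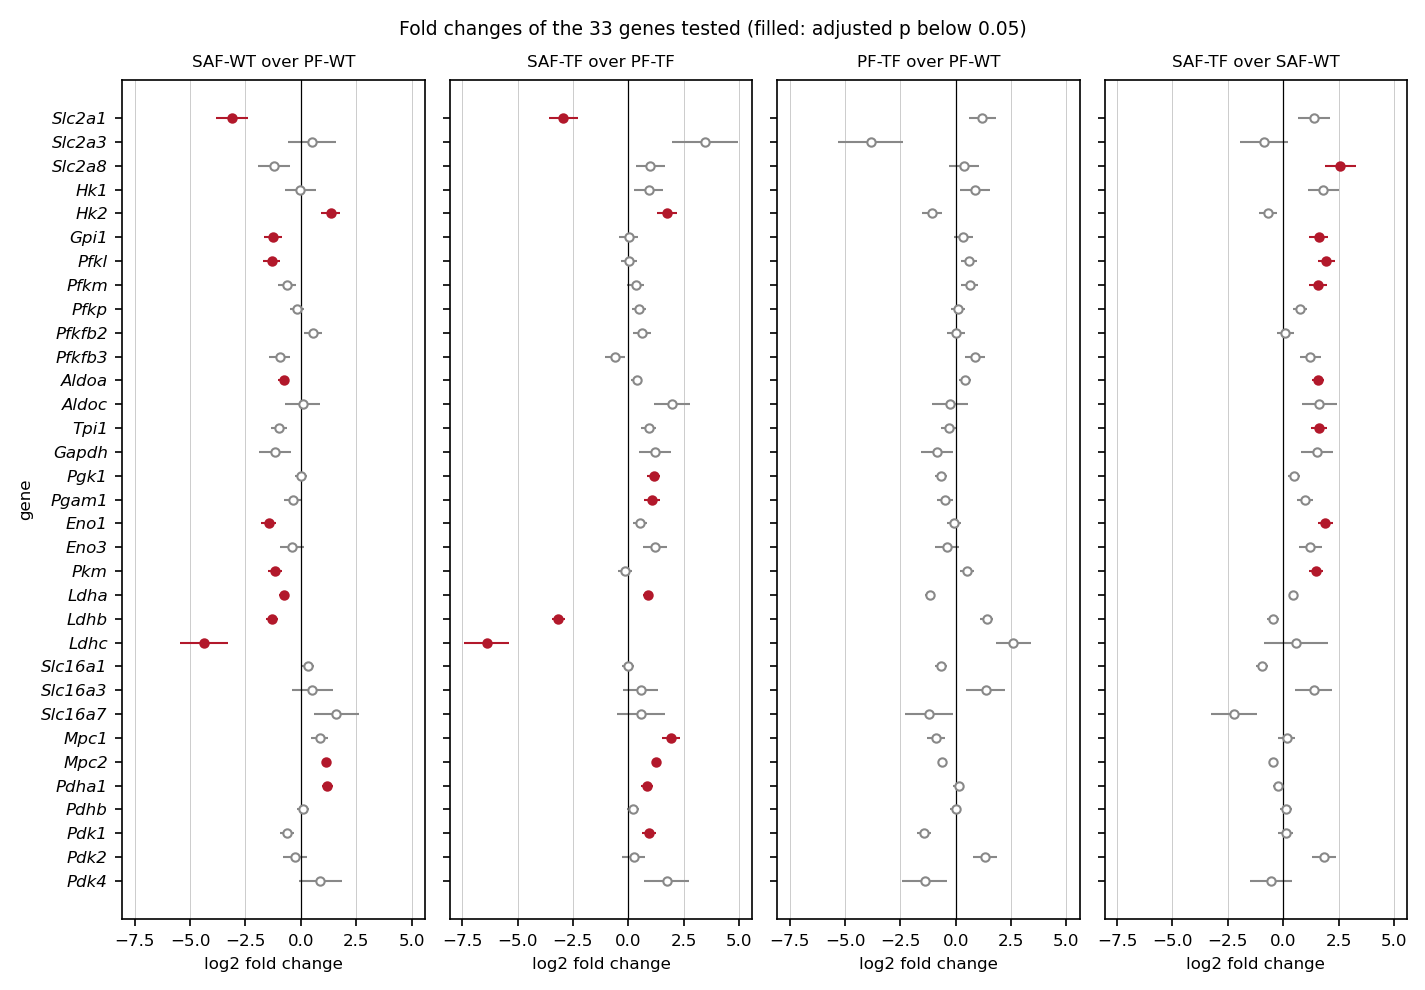
Log2 fold changes with standard errors of the 33 genes tested, in 4 panels for the 2 stage comparisons and the 2 source comparisons; filled red points passed an adjusted p of 0.05. In the SAF-TF over SAF-WT panel 8 points are filled, all to the right of 0, and in the PF-TF over PF-WT panel 0 are filled.

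Ldhb was higher in preantral than in small antral follicles, while Ldha went in opposite directions with stage in the 2 sources. Ldhb encodes the B subunit of lactate dehydrogenase and lies on chromosome 6 at 142490249 to 142507957 of GRCm38. Its level was 1542 and 2224 CPM in PF-WT, 5523 and 4349 CPM in PF-TF, 596 and 947 CPM in SAF-WT, and 618 and 487 CPM in SAF-TF. All 4 preantral libraries were above all 4 small antral libraries, and both PF-TF libraries were above both PF-WT libraries. Ldhb fell with stage by a log2 fold change of -1.29 ± 0.28 in wild type (adjusted p = 0.00632) and of -3.16 ± 0.30 in TF (adjusted p = 5.84e-05), where ± is the standard error here and below. The difference of these stage effects was -1.87 ± 0.39 (adjusted p = 0.0624), which did not pass. The wild type call was lost without SAF-WT replicate 1 (-0.99, adjusted p = 0.0649), and the TF call passed in each of the 16 alternatives run. Of the counts of the listed genes, Ldhb held 71.32% and 70.82% in the PF-TF libraries and 47.29% and 47% in the PF-WT libraries. Among small antral libraries it held 25.84% and 36.85% for SAF-WT and 15.31% and 16.97% for SAF-TF. Per kilobase it ranked 1 and 2 among 18163 genes in the PF-TF libraries, 59 and 13 in PF-WT, and between 207 and 377 in the small antral libraries. The oocyte marker sum had its highest values in the same group, PF-TF, and was lower in the small antral libraries. In whole follicles, fewer cells of a type and less RNA per cell cannot be told apart, and the part of the cell mix in the results here and below was not tested.

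Ldha encodes the A subunit and lies on chromosome 7 at 46842274 to 46855627, with Ldhc, the form known from germ cells, next to it at 46861263 to 46878147. The level of Ldha was 247 and 348 CPM in PF-WT, 142 and 120 CPM in PF-TF, 177.4 and 175.5 CPM in SAF-WT, and 244 and 242 CPM in SAF-TF. Within the preantral stage the TF libraries were the lower ones, and within the small antral stage they were the higher ones, without overlap. Ldha fell with stage in wild type (-0.76 ± 0.21, adjusted p = 0.0215) and rose in TF (0.89 ± 0.21, adjusted p = 0.00817). The difference of the stage effects was 1.65 ± 0.30 (adjusted p = 0.0399), a call lost in 7 of 14 alternatives, among them leaving out either library of PF-TF, SAF-WT or SAF-TF (adjusted p from 0.0686 to 0.175). The wild type fall did not pass with upper quartile factors, with the authors' scale factors (-0.40), or without PF-WT replicate 2 (-0.49, adjusted p = 0.0968), SAF-WT replicate 1 (-0.76, adjusted p = 0.113) or SAF-WT replicate 2 (-0.75, adjusted p = 0.103). The source difference was -1.18 ± 0.22 in PF (adjusted p = 0.058) and 0.46 ± 0.21 in SAF (adjusted p = 0.186). Ldhb differed between the sources by 1.39 ± 0.28 in PF (adjusted p = 0.058) and -0.48 ± 0.27 in SAF (adjusted p = 0.275). Ldha and Ldhb in PF passed with DESeq2, without the low-count filter and without PF-WT replicate 2 (adjusted p = 0.039 for Ldha and 0.0333 for Ldhb).

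Ldhc held 8 and 104 counts in PF-WT, 431 and 298 counts in PF-TF, 1 and 4 counts in SAF-WT, and 4 and 4 counts in SAF-TF. The PF-TF libraries were the highest, the PF-WT libraries were far apart from each other, and the small antral libraries were all near 0. Ldhc fell with stage in TF (-6.40 ± 1.03, adjusted p = 0.00103) and in wild type (-4.38 ± 1.10, adjusted p = 0.0128). Without PF-WT replicate 2 the wild type value was -1.80 (adjusted p = 0.151), and without SAF-WT replicate 1 it was -3.71 (adjusted p = 0.0975).

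**Figure D2:**
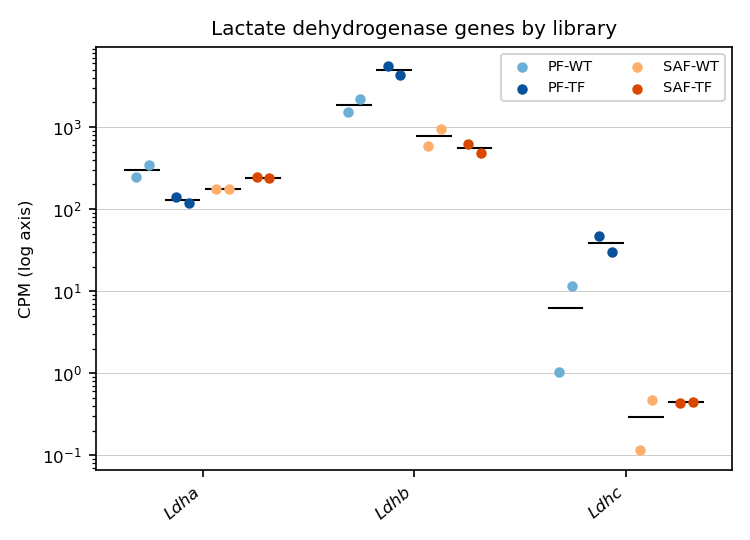
Level of Ldha, Ldhb and Ldhc in CPM on a log axis, with 1 point per library and a bar at the mean of each group of 2 libraries. Ldhb is highest in PF-TF, at 5523 and 4349 CPM, while Ldha is lowest there, at 142 and 120 CPM.

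Summed over the genes and given per kilobase, the lactate dehydrogenase level was 1637 ± 422 CPM per kb in PF-WT, 3904 ± 658 in PF-TF, 703 ± 190 in SAF-WT and 577 ± 72.4 in SAF-TF (mean and SD, n = 2). Ldhb made up 88.29% and 88.12% of that sum for PF-WT and 96.93% and 96.99% for PF-TF. It made up 80.35% and 86.75% for SAF-WT and 75.45% and 70.98% for SAF-TF. Thus the B subunit transcript was the larger in every library, and its share was highest in PF-TF and lowest in SAF-TF. The log2 ratio of Ldha to Ldhb counts needs no scaling between libraries. It was -3.94 ± 1.49 over the 4 PF libraries and -1.63 ± 0.61 over the 4 SAF libraries (mean and SD). In wild type it was -2.64 and -2.68 for PF and -1.75 and -2.43 for SAF. In TF it was -5.28 and -5.18 for PF and -1.34 and -1.01 for SAF, so the stages lay closer together in wild type. The 2 stages did not overlap (exact two-sided permutation test, p = 0.0286, the smallest that 4 against 4 libraries allow; adjusted p = 0.124 over 26 ratio tests).

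The promoters of Ldha and Ldhb, which passed in opposite directions with stage in TF and in the same direction in wild type, and of Eno1, a trunk enzyme gene called in 2 of the comparisons, are shown as the 250 bases before the RefSeq start (GRCm38.p6), 5′ to 3′ on the strand of the gene. They lie at chr7:46845554-46845803 (plus strand), chr6:142507958-142508207 (minus strand) and chr4:150236458-150236707 (plus strand). The start used for Ldha, 46845804, lies inside the span given above for that gene, 35 bases before the nearest start of a GENCODE transcript. For Ldhb that distance was 0 and for Eno1 it was 13 bases. Capitals mark ACGTG or GCGTG on either strand, the core letters bound by hypoxia-inducible factors, which are known to drive glycolytic genes.
Ldha: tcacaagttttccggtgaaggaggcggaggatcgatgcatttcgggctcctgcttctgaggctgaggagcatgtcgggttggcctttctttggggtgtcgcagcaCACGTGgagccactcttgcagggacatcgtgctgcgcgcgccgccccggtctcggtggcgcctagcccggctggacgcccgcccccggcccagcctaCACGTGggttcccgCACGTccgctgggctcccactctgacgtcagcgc
Ldhb: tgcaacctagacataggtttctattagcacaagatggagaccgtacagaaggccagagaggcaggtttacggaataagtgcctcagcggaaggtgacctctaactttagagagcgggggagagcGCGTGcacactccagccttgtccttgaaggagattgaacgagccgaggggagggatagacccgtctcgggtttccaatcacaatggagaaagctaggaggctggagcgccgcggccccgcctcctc
Eno1: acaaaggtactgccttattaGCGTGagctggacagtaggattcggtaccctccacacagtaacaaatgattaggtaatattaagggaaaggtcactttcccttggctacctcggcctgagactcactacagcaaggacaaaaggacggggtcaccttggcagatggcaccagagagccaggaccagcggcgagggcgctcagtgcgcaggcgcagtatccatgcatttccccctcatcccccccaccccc
In these bases the motif stood 5 times for Ldha, counting overlaps, and 1 time each for Ldhb and Eno1. Over the whole windows of 300 bases (250 before and 50 after the start), 26 of the 33 listed genes with a RefSeq window held ACGTG or GCGTG on either strand, or 78.8%, beside 43.8% of 27025 windows of all genes. The median GC content was 62% in the windows of the listed genes and 52.7% in all windows. CACGTG, which overlaps ACGTG, stood in 5 of the 33 windows (15.2%, beside 7.24%) and was found in the Ldha window 2 times. Of the 8 genes higher in SAF-TF than in SAF-WT, 4 held ACGTG or GCGTG (50%).

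The trunk of glycolysis runs from glucose 6-phosphate to pyruvate. The summed level of 10 of its enzyme genes, without Gapdh, was lowest in SAF-WT and highest in SAF-TF replicate 1. The sum of the 10 genes Gpi1, Pfkl, Pfkm, Pfkp, Aldoa, Tpi1, Pgk1, Pgam1, Eno1 and Pkm was 964.7 and 1576 CPM in PF-WT, 1534 and 1201 CPM in PF-TF, 667.9 and 648.1 CPM in SAF-WT, and 2426 and 1420 CPM in SAF-TF. Both SAF-WT libraries lay under the other 6 libraries, and SAF-TF replicate 2 lay within the range of the preantral libraries. The sum is not per kilobase and rests most on Aldoa, Tpi1 and Eno1, the genes with the highest CPM. Pgk1, Pgam1 and Pfkp did not have their lowest values in SAF-WT. Pgk1, for one, stood at 34.9 and 30.1 CPM in SAF-WT and at 16.9 and 24.1 CPM in PF-TF. The luteal marker sum was at least 26590 CPM in both SAF-TF libraries and at most 4051 CPM in the others, and 7 of 7 luteal markers tested were higher in SAF-TF than in SAF-WT, as were 3 of 8 macrophage and 2 of 9 granulosa markers. Lower in SAF-TF were 3 of 8 stroma and fibroblast markers, 2 of 12 oocyte markers and 4 of 5 theca and interstitium markers tested, of which 1 was higher. These counts stand beside 4.61% of all genes higher and 5.34% lower in SAF-TF.

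Eno1 encodes the widespread enolase, which makes phosphoenolpyruvate, and lies on chromosome 4 at 150236708 to 150248879. Its level was 158 and 292 CPM in PF-WT, 225 and 198 CPM in PF-TF, 80.8 and 82.9 CPM in SAF-WT, and 388 and 223 CPM in SAF-TF. The SAF-WT libraries were the lowest and close to each other. Eno1 fell with stage in wild type (-1.46 ± 0.33, adjusted p = 0.00807) and was higher in SAF-TF than in SAF-WT (1.90 ± 0.33, adjusted p = 0.0115). In TF the stage difference was 0.53 ± 0.32 (adjusted p = 0.213) and the difference of the stage effects 1.99 ± 0.46 (adjusted p = 0.0853). The wild type fall did not pass without SAF-WT replicate 1 (-1.44, adjusted p = 0.0621).

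Aldoa encodes the main aldolase, which splits fructose 1,6-bisphosphate. Its level was 292 and 422 CPM in PF-WT, 533 and 426 CPM in PF-TF, 205 and 210.1 CPM in SAF-WT, and 751 and 490.2 CPM in SAF-TF. The SAF-TF libraries were above the SAF-WT libraries by 1.58 ± 0.27 on the log2 scale (adjusted p = 0.0101). The fall with stage in wild type was -0.78 ± 0.26 (adjusted p = 0.0419), a call that was lost in 10 of 16 alternatives, among them every other scaling (-0.43 with the authors' scale factors) and leaving out PF-WT replicate 2 (-0.49), PF-TF replicate 1 or 2 (-0.72 in both) or SAF-WT replicate 1 (-0.77) or 2 (-0.80).

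Tpi1 encodes triosephosphate isomerase, which interconverts the products of that split. Its level was 257 and 468 CPM in PF-WT, 326 and 260.2 CPM in PF-TF, 183 and 180.5 CPM in SAF-WT, and 731 and 374 CPM in SAF-TF. It was higher in SAF-TF than in SAF-WT (1.60 ± 0.35, adjusted p = 0.0245), and SAF-TF replicate 1 stood well above replicate 2. Its stage differences, -0.99 ± 0.35 in wild type (adjusted p = 0.0507) and 0.92 ± 0.35 in TF (adjusted p = 0.0575), were of opposite sign and missed the threshold. The first passed in 6 alternatives and the second in 9, among them DESeq2 (adjusted p = 0.00908) and each other scaling.

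Pkm encodes the pyruvate kinase of most tissues, the last step of the pathway. Its level was 94.1 and 129.8 CPM in PF-WT, 189 and 127 CPM in PF-TF, 52.3 and 47.8 CPM in SAF-WT, and 182 and 99.3 CPM in SAF-TF. Pkm fell with stage in wild type (-1.16 ± 0.32, adjusted p = 0.0199) and was higher in SAF-TF than in SAF-WT (1.49 ± 0.32, adjusted p = 0.0237). Its stage difference in TF was -0.17 ± 0.32, with a sign that turned under upper quartile factors (0.15) and the authors' scale factors (0.18). The wild type fall did not pass without PF-WT replicate 2 (-0.91, adjusted p = 0.0976), SAF-WT replicate 1 (-1.23, adjusted p = 0.0894) or SAF-WT replicate 2 (-1.10, adjusted p = 0.103).

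Gpi1, the isomerase that makes fructose 6-phosphate, stood at 60.3 and 123 CPM in PF-WT, 149 and 83.7 CPM in PF-TF, 42.3 and 34.6 CPM in SAF-WT, and 154 and 81.3 CPM in SAF-TF. It fell with stage in wild type (-1.25 ± 0.42, adjusted p = 0.0436) and was higher in SAF-TF than in SAF-WT (1.61 ± 0.43, adjusted p = 0.0443). The fall was -0.65 (adjusted p = 0.301) without PF-WT replicate 2, -1.41 (adjusted p = 0.125) without SAF-WT replicate 1 and past no threshold without SAF-WT replicate 2 (adjusted p = 0.183), and it did not pass with any of the 3 other scalings. Aldoa, Eno1, Gpi1, Pfkl, Pfkm, Pkm, Slc2a8 and Tpi1 each lost their source call in SAF without SAF-WT replicate 1 or 2 or SAF-TF replicate 1, while their fold changes stayed positive in every alternative run. The lowest of these values was 0.99 for Pkm without SAF-TF replicate 1 (adjusted p = 0.201), and for Gpi1, Tpi1 and Eno1 the values in that setting were 1.08, 1.04 and 1.45.

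Phosphofructokinase, the committed step, is built from subunits that Pfkl, Pfkm and Pfkp encode. Pfkl stood at 9.19 and 15.4 CPM in PF-WT, 20.05 and 16.9 CPM in PF-TF, 4.36 and 5.57 CPM in SAF-WT, and 21.7 and 16.5 CPM in SAF-TF. Pfkm stood at 8.80 and 12.4 CPM in PF-WT, 15.7 and 17.3 CPM in PF-TF, 5.28 and 8.65 CPM in SAF-WT, and 25.8 and 15.6 CPM in SAF-TF. Both were lowest in SAF-WT and higher in SAF-TF, Pfkl by 1.94 ± 0.38 (adjusted p = 0.0172) and Pfkm by 1.57 ± 0.40 (adjusted p = 0.0399). Pfkl also fell with stage in wild type (-1.31 ± 0.38, adjusted p = 0.0241), a call lost without PF-WT replicate 2 (-0.89) or SAF-WT replicate 1 (adjusted p = 0.149) or 2 (adjusted p = 0.066), in the fit of 4 libraries, and with upper quartile or the authors' scale factors (-0.96). Pfkp passed in no comparison and ran from 13.6 to 30.1 CPM. Per kilobase, the sum of the 3 subunit genes was 8.25 ± 1.32 CPM per kb in SAF-WT and 20.02 ± 5.37 in SAF-TF (mean and SD, n = 2). Pfkp made up 58.4% and 50.3% of that sum in SAF-WT and 31.7% to 51.8% in the other libraries. These shares rest on transcript length, since that of Pfkp in SAF-WT was 35.9% and 28.8% with the longest transcript of each gene.

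Pgk1 and Pgam1, which encode phosphoglycerate kinase and mutase, passed the test with stage in TF and not in wild type. Pgk1 stood at 30.6 and 34.3 CPM in PF-WT, 16.9 and 24.1 CPM in PF-TF, 34.9 and 30.1 CPM in SAF-WT, and 49.2 and 41.4 CPM in SAF-TF. The change was 1.14 ± 0.28 in TF (adjusted p = 0.00861) and 0.00 ± 0.27 in wild type (adjusted p = 0.997), and the difference of the 2 was 1.14 ± 0.39 (adjusted p = 0.2). Pgam1 stood at 34.1 and 65.4 CPM in PF-WT, 40.5 and 31.3 CPM in PF-TF, 44.5 and 32.2 CPM in SAF-WT, and 93.7 and 57 CPM in SAF-TF. Its change was 1.07 ± 0.37 in TF (adjusted p = 0.04), and 0.67 (adjusted p = 0.27) without SAF-TF replicate 1. In wild type it was -0.38 ± 0.37, and the difference of the 2 was 1.45 ± 0.52 (adjusted p = 0.223). For Pgk1 the TF value without SAF-TF replicate 1 was 1.01 (adjusted p = 0.0601). The Pgam1 call was also lost without PF-TF replicate 2 (adjusted p = 0.0892) and without SAF-WT replicate 1 or 2 (adjusted p = 0.0521 and 0.0516).

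**Figure D3:**
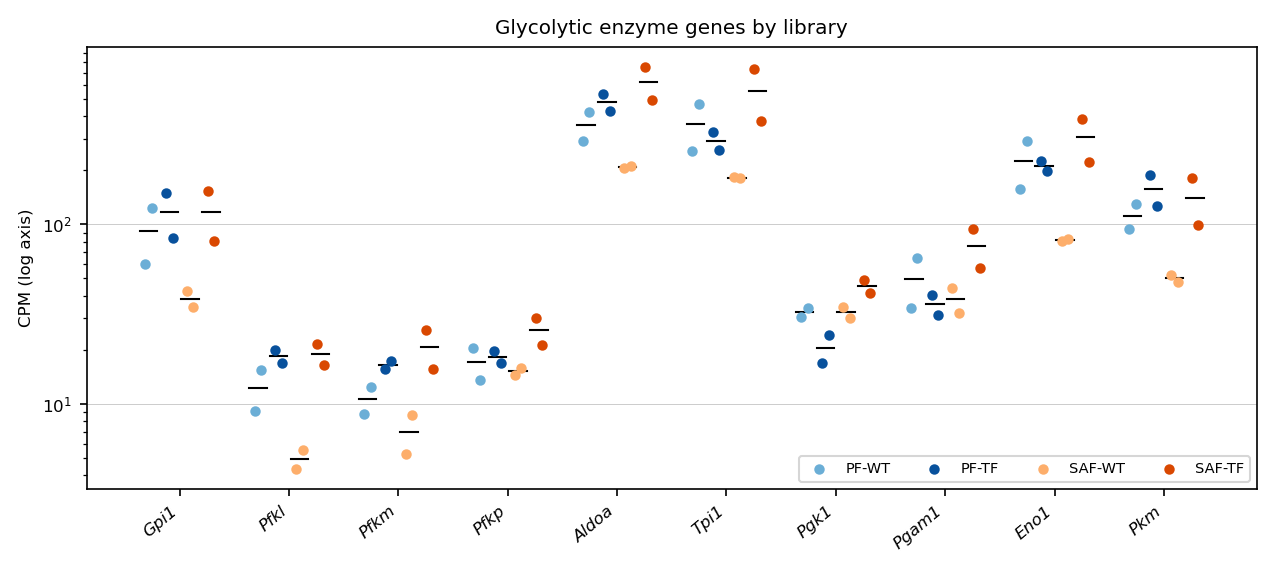
Level of 10 trunk enzyme genes in CPM on a log axis, with 1 point per library and a bar at the mean of each group of 2 libraries. For Gpi1, Pfkl, Pfkm, Aldoa, Tpi1, Eno1 and Pkm both SAF-WT points lie under the points of the other 3 groups, as with Eno1 at 80.8 and 82.9 CPM.

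Gapdh, the glyceraldehyde 3-phosphate dehydrogenase gene that is often used as a reference, had few counts. It held 13 and 76 counts in PF-WT, 27 and 27 counts in PF-TF, 26 and 13 counts in SAF-WT, and 73 and 46 counts in SAF-TF. Another 71 genes described as its pseudogenes together held 787 to 985 counts in each preantral library, 243 and 214 counts for SAF-WT and 767 and 502 counts for SAF-TF. The sources used here do not say how reads with several matches were counted, and Gapdh passed in no comparison. Mpc1 had a like neighbour, since Mpc1-ps held 230 to 958 counts per library where Mpc1 held 32 to 124. For Ldha, Ldhb, Eno1, Pgk1, Pgam1, Pkm and Pdhb the counts of such pseudogenes together stayed under those of the gene in every library. Pseudogenes of the other listed genes, among them Aldoa, Tpi1 and Gpi1, were not looked up by description. By symbol, Ldha-ps2, Pgam1-ps1, Pgam1-ps2 and Pgk1-rs7 were also present and held at most 51 counts in a library.

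Glucose enters the cell through Slc2a family transporters. Slc2a1, the widespread glucose transporter, stood at 15 and 12.9 CPM in PF-WT, 43.4 and 20.3 CPM in PF-TF, 0.344 and 2.84 CPM in SAF-WT, and 4.95 and 3.38 CPM in SAF-TF. All preantral libraries were above all small antral ones. It fell with stage, with a log2 fold change of -3.12 ± 0.71 in wild type (adjusted p = 0.00848) and of -2.93 ± 0.66 in TF (adjusted p = 0.00611). The wild type call passed in each of the 16 alternatives, with values from -5.28 to -2.29, and the TF call was lost without SAF-TF replicate 2 (-2.68, adjusted p = 0.0529). Slc2a8 stood at 1.18 and 2.89 CPM in PF-WT, 3.21 and 2.11 CPM in PF-TF, 0.688 and 1.07 CPM in SAF-WT, and 6.82 and 3.83 CPM in SAF-TF. It was higher in SAF-TF than in SAF-WT by 2.58 ± 0.70 (adjusted p = 0.0475), a call that any SAF library left out removed, with values of 2.11 to 2.94. The log2 ratio of Slc2a1 to Slc2a8 counts was 3.17 ± 0.72 over the PF libraries and -0.04 ± 0.98 over the SAF libraries, without overlap (exact permutation p = 0.0286, adjusted p = 0.124). Slc2a3, the high-affinity transporter, held 0 to 18 counts per library.

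Hexokinases trap glucose in the cell by phosphorylation. Hk2, the inducible form, stood at 4.46 and 6.21 CPM in PF-WT, 3.32 and 1.71 CPM in PF-TF, 13.7 and 13.6 CPM in SAF-WT, and 9.24 and 7.67 CPM in SAF-TF. It rose with stage by 1.35 ± 0.43 in wild type (adjusted p = 0.0362) and 1.75 ± 0.45 in TF (adjusted p = 0.0117), and every small antral library was above every preantral one. The wild type call was lost without any 1 of 6 libraries (PF-WT, SAF-WT and SAF-TF), at 1.26 to 1.61, and the TF call without SAF-TF replicate 1 (1.61, adjusted p = 0.0615). Hk1, the widespread form, stood at 1.05 and 4.44 CPM in PF-WT, 4.65 and 5.52 CPM in PF-TF, 2.29 and 3.20 CPM in SAF-WT, and 13.9 and 5.41 CPM in SAF-TF, and passed in no comparison. Per kilobase, Hk1 made up 20.69% and 44.2% of the summed level of both for PF-WT and 60.82% and 78.2% for PF-TF. Its share was 15.71% and 20.66% for SAF-WT and 62.45% and 43.91% for SAF-TF. The TF and WT libraries overlapped in the Hk1 to Hk2 ratio (difference of the log2 ratio 2.34, exact permutation p = 0.0571, adjusted p = 0.186).

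Pfkfb2 and Pfkfb3 encode the enzymes that make and break fructose 2,6-bisphosphate, the activator of phosphofructokinase. Pfkfb2 ran from 6.52 to 14.9 CPM and Pfkfb3 from 2.06 to 13.2 CPM, and neither passed in any comparison. Their ratio separated the stages, with a log2 ratio of Pfkfb3 to Pfkfb2 of 0.05 ± 0.50 over the PF libraries and -1.32 ± 0.68 over the SAF libraries (exact permutation p = 0.0286, adjusted p = 0.124). Both SAF-WT libraries had the lowest ratios, -2.05 and -1.75.

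Lactate and pyruvate cross the plasma membrane through Slc16a family transporters. Slc16a1, the widespread carrier MCT1, stood at 45.8 and 30.5 CPM in PF-WT, 23.8 and 24.9 CPM in PF-TF, 50.1 and 45.3 CPM in SAF-WT, and 24 and 24.8 CPM in SAF-TF. All 4 TF libraries lay under all 4 WT libraries. The source difference was -0.97 ± 0.27 in SAF (adjusted p = 0.0531) and -0.65 ± 0.27 in PF (adjusted p = 0.217), neither of which passed, and it passed in SAF with DESeq2, in the fit of the 4 SAF libraries, and without PF-WT replicate 1 or 2. Slc16a7, a high-affinity pyruvate carrier, ran from 1 count (PF-TF replicate 2) to 146 counts (SAF-WT replicate 1) and passed in no comparison. Slc16a3, the lactate exporter of glycolytic cells, was at most 1.43 CPM in every library.

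The mitochondrial pyruvate carrier is a pair of the proteins MPC1 and MPC2. Mpc2 stood at 192 and 169 CPM in PF-WT, 115 and 124 CPM in PF-TF, 418 and 373 CPM in SAF-WT, and 264 and 309 CPM in SAF-TF. It rose with stage by 1.13 ± 0.19 in wild type (adjusted p = 0.00191) and 1.27 ± 0.19 in TF (adjusted p = 7.17e-04), in each of the 16 alternatives run for both. At each stage the TF libraries were under the WT libraries, by -0.60 ± 0.19 in PF (adjusted p = 0.12) and -0.46 ± 0.19 in SAF (adjusted p = 0.143), which did not pass. Mpc1 rose in TF (1.91 ± 0.41, adjusted p = 0.00451) and stood at 0.85 ± 0.39 in wild type (adjusted p = 0.121), with the limit set by Mpc1-ps given above. The difference of the Mpc1 stage effects was 1.06 ± 0.56 (adjusted p = 0.412).

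The pyruvate dehydrogenase complex turns pyruvate into acetyl-CoA, and its E1 enzyme is built from the products of Pdha1 and Pdhb. Pdha1 stood at 47 and 34.4 CPM in PF-WT, 52.4 and 36.5 CPM in PF-TF, 100.6 and 85.7 CPM in SAF-WT, and 84.3 and 75.8 CPM in SAF-TF. It rose with stage by 1.20 ± 0.26 in wild type (adjusted p = 0.00695) and 0.85 ± 0.26 in TF (adjusted p = 0.0247). The wild type call was lost without SAF-WT replicate 1 (1.07, adjusted p = 0.0588), and the TF call without PF-TF replicate 2 (0.74, adjusted p = 0.104) or SAF-TF replicate 1 (0.77, adjusted p = 0.111) or 2 (0.92, adjusted p = 0.0645). Pdhb stood at 125 to 228 CPM and passed in no comparison, with stage differences of 0.10 ± 0.27 and 0.21 ± 0.27. The log2 ratio of Pdha1 to Pdhb counts was -2.03 ± 0.56 over the PF libraries and -1.18 ± 0.20 over the SAF libraries, without overlap (exact permutation p = 0.0286, adjusted p = 0.124).

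Among the kinases that inactivate the complex, Pdk1 had its lowest levels in PF-TF and Pdk2 was higher in every TF than in every WT library, though neither source difference passed the test. Pdk1 stood at 25.6 and 22.5 CPM in PF-WT, 6.98 and 10.7 CPM in PF-TF, 17 and 14.5 CPM in SAF-WT, and 16.3 and 17.6 CPM in SAF-TF. The preantral sources did not overlap (-1.44 ± 0.33, adjusted p = 0.0699, not past the threshold), and the small antral sources did. Pdk1 rose with stage in TF (0.93 ± 0.33, adjusted p = 0.0422), a call lost in 8 of 16 alternatives, among them leaving out PF-TF replicate 1 (0.77), SAF-WT replicate 1 or 2 (0.93 in both) or SAF-TF replicate 1 or 2 (0.99 and 0.88). Pdk2 stood at 3.68 and 8.99 CPM in PF-WT, 19.5 and 12.5 CPM in PF-TF, 5.28 and 5.21 CPM in SAF-WT, and 26.6 and 11.4 CPM in SAF-TF. The source difference of Pdk2 was 1.85 ± 0.54 in SAF (adjusted p = 0.0582) and 1.33 ± 0.53 in PF (adjusted p = 0.197). The SAF difference passed in 8 alternatives, among them DESeq2. The log2 ratio of Pdk1 to Pdk2 counts was -0.45 ± 0.88 over the TF libraries and 1.81 ± 0.66 over the WT libraries, without overlap (exact permutation p = 0.0286, adjusted p = 0.124). Pdk4, which fasting is known to raise, held 0 counts in PF-TF replicate 1, which allows up to 3 counts or 0.332 CPM, and 50 to 126 counts in the other libraries.

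**Figure D4:**
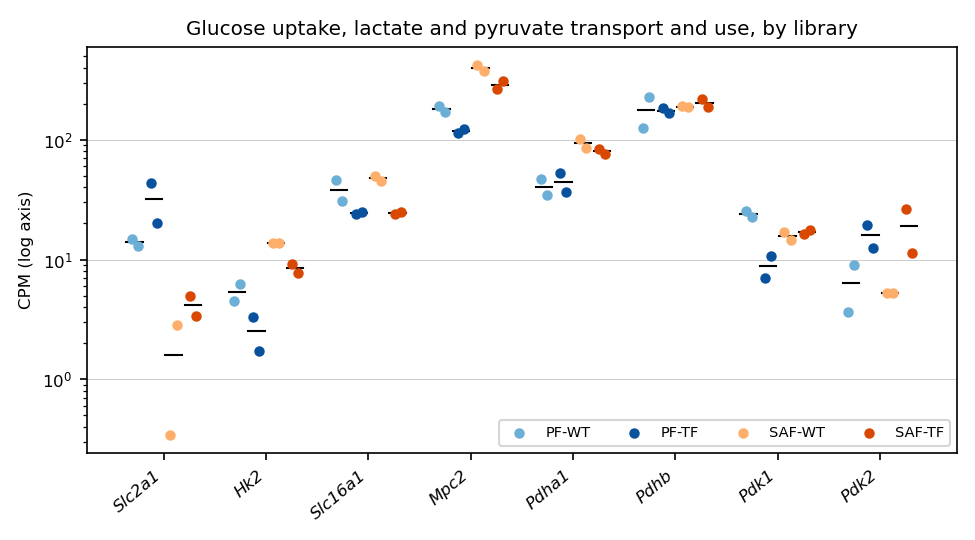
Level of 8 genes of glucose uptake, lactate and pyruvate transport and pyruvate use in CPM on a log axis, with 1 point per library and a bar at the mean of each group of 2 libraries. The Slc16a1 points of TF follicles (23.8 to 24.9 CPM) lie under those of wild type follicles, and the Pdk2 points lie above them.

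**Figure D5:**
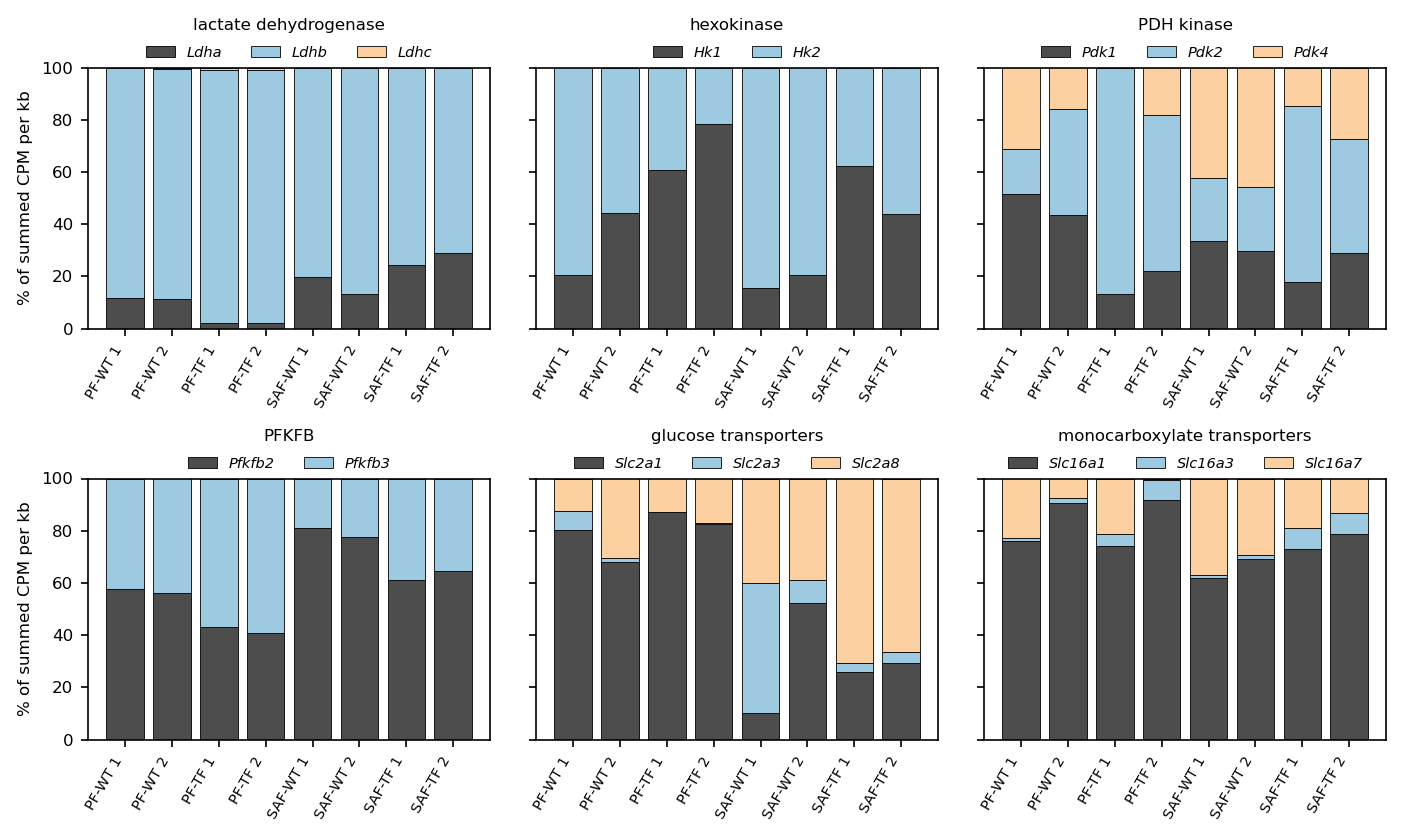
Share of each gene in the summed CPM per kb of its family, in percent, with 1 bar per library and 6 families. Ldhb makes up 71% to 97% of lactate dehydrogenase, and the share of Pdk2 among the kinases is higher in each TF library of a stage than in the WT libraries of that stage.

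Of 13 pairs of genes of 1 family or complex with enough counts, 6 had groups that did not overlap in 1 of the 2 comparisons. Between the stages these were Ldha to Ldhb, Aldoa to Aldoc, Slc2a1 to Slc2a8, Pfkfb3 to Pfkfb2 and Pdha1 to Pdhb. Between the sources it was Pdk1 to Pdk2. Pdha1 and Pdhb, and Mpc1 and Mpc2, encode different subunits and are not isoenzymes. How often pairs of other genes separate these groups was not worked out, so the 6 cannot be read as a trait of such pairs. In the exact permutation test 0 of 26 ratio tests passed after adjustment, as 4 against 4 libraries cannot go below p = 0.0286. Aldoa took 98.5% to 99.9% of aldolase per kilobase, so the ratio to Aldoc moved within a small share. Eno1 took 92% to 97.7% of enolase, with the muscle form Eno3 as most of the rest, and Eno2, the neuronal form, held 13 and 5 counts in SAF-TF and at most 1 count elsewhere. Pgam2, the muscle mutase, held 0 counts in each preantral library and 3 to 5 counts in each small antral library.

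Other genes of the pathway came from lists chosen by function, and their counts stand beside the shares of all genes given above, 35.1% with stage in wild type and 43.2% in TF. In wild type the shares called lay between 7.14% (tricarboxylic acid cycle) and 33.33% in 7 of the 8 lists, under the share of all genes, and at 50% (2 of 4 genes) in gluconeogenesis. In TF they lay between 28.57% (tricarboxylic acid cycle) and 58.33% (hypoxia targets). Of 6 further sugar carriers tested, 2 fell in each source, Slc45a3 (-3.64 ± 0.39 in wild type and -3.81 ± 0.38 in TF) and Slc2a12 (-5.46 ± 0.91 and -5.89 ± 0.88). Of 9 other glycolytic enzymes and regulators, 0 rose and 3 fell in each source, Bpgm, Pfkfb1 and Adpgk. Bpgm, which makes the 2,3-bisphosphoglycerate that red cells use, was the most abundant of them, at 933 and 754 CPM in PF-WT, 1240 and 1245 CPM in PF-TF, 114 and 157 CPM in SAF-WT, and 81.3 and 61 CPM in SAF-TF. It fell by -2.64 ± 0.24 in wild type (adjusted p = 8.98e-05) and -4.13 ± 0.26 in TF (adjusted p = 1.78e-05), and it was lower in SAF-TF than in SAF-WT (-0.93 ± 0.23, adjusted p = 0.0376). All preantral libraries were above all small antral ones, as with Ldhb. The sum of 5 erythroid markers was 5382 and 2022 CPM in PF-WT, 9.75 and 337.5 CPM in PF-TF, 3470 and 3186 CPM in SAF-WT, and 623.9 and 305.9 CPM in SAF-TF, and its part in the Bpgm result was not tested. Of 11 further genes of the pyruvate dehydrogenase complex and of pyruvate use, 0 rose and 2 fell in wild type, and 1 rose and 4 fell in TF. Pdhx, which anchors the E3 subunit, fell in both (-2.71 ± 0.27 and -2.08 ± 0.26).

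Of 9 genes of the pentose phosphate pathway, which branches off at glucose 6-phosphate, 2 were higher in SAF-TF than in SAF-WT, beside 4.61% of all genes. These were Taldo1, the transaldolase gene (1.78 ± 0.35, adjusted p = 0.0164), and G6pdx, the entry enzyme gene (1.38 ± 0.36, adjusted p = 0.0426), and G6pdx also fell with stage in both sources (-2.91 ± 0.37 and -2.60 ± 0.36). Of 9 other monocarboxylate carriers and chaperones, Emb, a chaperone of such carriers, was higher in SAF-TF (2.28 ± 0.58, adjusted p = 0.0396). Of 4 gluconeogenesis genes, 2 fell with stage in each source, Fbp1 (-3.80 ± 0.44 and -3.59 ± 0.44) and Fbp2 (-1.64 ± 0.47 in wild type, and adjusted p = 3.24e-04 in TF). Of 14 genes of the tricarboxylic acid cycle, 1 rose and 0 fell in wild type and 3 rose and 1 fell in TF, with Suclg1 higher in both (0.70 ± 0.22 and 1.43 ± 0.22). Of 12 hypoxia targets outside glycolysis, 2 rose and 2 fell in wild type and 4 rose and 3 fell in TF. Bnip3, a mitophagy receptor gene, rose in TF (2.09 ± 0.20, adjusted p = 6.20e-05), was higher in SAF-TF than in SAF-WT (1.42 ± 0.19, adjusted p = 0.0049), and differed in its stage effects between the sources (2.12 ± 0.27, adjusted p = 0.0117). Car9, a carbonic anhydrase gene, fell in wild type (-3.16 ± 0.51, adjusted p = 0.00148) and in TF (adjusted p = 0.00114).

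In the authors' deposited table, 19 of the 35 genes passed an FDR of 0.05 between SAF-TF and PF-TF, 16 higher and 3 lower. Of all 22129 genes there, 40.7% passed, 5300 higher and 3704 lower. Between SAF-WT and PF-WT 11 of the 35 passed, 7 higher and 4 lower. Of all 22138 genes there, 34.8% passed, 4586 higher and 3110 lower. The authors' deposited table gives Ldhb a log2 value of -2.81 in TF and -0.94 in wild type, and Ldha 1.24 and -0.40. In wild type neither gene passed there, with an FDR of 0.0855 for Ldhb and 0.431 for Ldha. These values rest on scale factors set within each table and on a test that the sources used here do not name.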

How the data were processed

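RNA of 8 single follicles was copied from polyadenylated RNA with a low-input kit, per the labels' protocols, and the submitters' processing notes name HISAT2 2.0.1 and GRCm38. Which counting program, gene annotation and strand setting were used is not stated there. Raw counts per gene were deposited, per the file headers, in 1 table for TF and 1 for WT. Beside them stands a normalized signal per group that the authors made, which equals the group mean of counts divided by a factor for each library. The authors' log2 column is the ratio of these signals. The authors also gave an FDR, taken here as an adjusted p-value, for small antral against preantral follicles.

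Counts of the 21997 genes in both tables were analysed together. The test was edgeR's quasi-likelihood test (edgeR 4.0.16, R 4.3.3; TMM factors; filterByExpr with min.count 10 and min.total.count 15; 1 mean per group; 4 residual degrees of freedom), with Benjamini-Hochberg adjustment over 17925 genes and a threshold of 0.05. The biological coefficient of variation was 0.303. A count of 0 allows up to 3 counts, 0.301 to 0.394 CPM by library, for counting error only, as reads are not independent molecules. CPM per kb used the median length of GENCODE vM21 basic coding transcripts. Ratios of counts had 0.5 added and were tested over 13 pairs by exact permutation. The fits were tested on simulated data. Promoters came from RefSeq (the window listed first for each gene).

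All listed genes present were named whatever their values, with up to 4 genes of smallest p per further list, and pseudogenes whose symbol is built on that of a listed gene. Pseudogenes known by description, and Hsd3b1 for its part in the luteal marker sum, were added after values were seen. The listed genes and the further lists were drawn up by function, with earlier results of these data known. Other scalings, filters, DESeq2 1.42.0, the replicate number as a block, fits of 4 libraries and leaving out each library were tried.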

Additional observations from a re-analysis of the deposited data

Results flagged for a closer look

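The stage effect on Ldha differed between the sources. The level went from 247 and 348 to 177.4 and 175.5 CPM in wild type and from 142 and 120 to 244 and 242 CPM in TF, and the difference of the stage effects was 1.647 on the log2 scale (SE 0.30, edgeR adjusted p = 0.0399). Its value ran from 1.38 to 1.86 and its adjusted p from 2.95e-04 to 0.175 over 14 alternatives, and it missed the threshold in 7 of them, 6 of which left out a library: without PF-TF replicate 1 (0.07) or 2 (0.0686), SAF-WT replicate 1 (0.129) or 2 (0.175), or SAF-TF replicate 1 (0.138) or 2 (0.0941). The oocyte markers were 8496 to 22700 CPM in the preantral libraries and the luteal markers 26590 and 36870 CPM in SAF-TF. Their part in the result was not tested.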

How the results depend on the processing

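No call on a listed gene reversed its direction in any alternative run. The ratio tests are no measure of stability, as the smallest p that their exact permutation test can give lies close to the threshold before adjustment. The number of listed genes called with stage in wild type, 12, ran from 2 to 12 without 1 library. With stage in TF, 11 became 18 with the authors' scale factors and ran from 6 to 13 without 1 library. Between the sources in PF, 0 became 2 without the low-count filter and 4 with DESeq2, and ran from 0 to 3 without 1 library (3 without PF-WT replicate 2, 1 without PF-TF replicate 2). Between the sources in SAF, 8 became 5 with the replicate block and 16 with only the 4 libraries compared, and ran from 0 to 12 without 1 library. For the difference of the stage effects, 1 became 2 without the filter, 0 with the replicate block and 4 with DESeq2, and ran from 0 to 2 without 1 library. The counts of all genes called moved in these settings too. For the difference of the stage effects, 162 became 213 without the filter, 74 with the replicate block and 810 with DESeq2. Between the sources in PF, 39 became 207 without the filter and 1281 with DESeq2. In SAF, 1785 became 1069 with the block and 3884 with only the 4 libraries compared. With stage in TF, 7744 became 7918 with the authors' scale factors. The cause of these moves was not tested, other than that fewer samples enter the fits without a library. Libraries that share a replicate number deviated from their group means with correlations of -0.12 to 0.11, so the numbers were not taken to pair the samples. The block counts were 9 for stage in wild type, 9 for stage in TF and 0 for source in PF, and with it the Ldha difference of stage effects had an adjusted p of 0.0859. With the numbers of PF-TF crossed, an alternative chosen after seeing the data, the source count in PF was 0. Where only 1 library of a group was left, it was assumed to vary like the other groups. Genes at a few counts, such as Slc2a3, Slc16a3, Pgam2 and Eno2, were too shallow to show a difference.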

Other observations

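Among the genes described as Gapdh pseudogenes, Gm5177, singled out after its values were seen, held 341 and 174 counts for PF-WT and 394 and 376 counts for PF-TF, against 0 and 1 counts for SAF-WT and 13 and 7 counts for SAF-TF. In the preantral libraries it held more counts than Gapdh itself, at 13 to 76, and in the small antral libraries fewer. Gm5371, described as a Pkm pseudogene and chosen in the same way, held 50 to 87 counts in the preantral libraries and 3 to 14 counts in the small antral libraries, so its preantral libraries were above its small antral ones. Mpc1-ps held 230 to 395 counts in the preantral and 760 to 958 counts in the small antral libraries, the same direction as Mpc1 and Mpc2.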
